A study of Mus musculus with 12 samples.

Results

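The genes described here are 37 sebaceous and fatty acid lipid synthesis genes, given as a list of gene symbols and not by any cut on measured values, out of 23235 gene symbols in the series. All 37 were found. They were followed in polyA RNA sequencing of 12 libraries from FVB/NJ mice, an inbred albino strain, with 3 libraries in each of 4 groups. In the CWO papilloma group, mice carrying skin tumours received 20% camphor white oil (CWO, a distillate of the camphor tree) over 6 weeks, and the vehicle papilloma group received acetone over the same time. Both papilloma groups had been shaved at 6 to 7 weeks of age in telogen, the resting phase of the hair cycle, and given 400 nmol of the carcinogen DMBA once and 10 nmol of the tumour promoter TPA repeatedly, all in acetone. Each papilloma library pools 4 pre-malignant tumours of 1 mouse, and there were 3 mice per group. In the CWO epidermis group, mice for which the labels name no carcinogen were shaved, painted 1 week later with 400 µL of 20% CWO and killed after 24 h. The vehicle epidermis group received 400 µL of acetone for the same 24 h. Epidermis was lifted from the skin by 40 min in ammonium thiocyanate, the labels name 5 treated mice, and the 3 samples of each treatment with the best RNA integrity (RIN above 8) were sequenced. The labels do not say how these samples relate to animals, so p-values in epidermis measure the spread between these samples, which may be technical. Levels are FPKM, fragments per kilobase of transcript scaled to the size of the library, which can be compared between genes. A gene is named as called where its limma test, adjusted by Benjamini-Hochberg over all genes tested, gave p under 0.05.

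Sebaceous glands sit beside the hair follicle and fill with lipid droplets until the whole cell bursts and is shed as sebum. Mouse sebum holds wax esters, triglycerides and cholesterol esters built from long, often branched or monounsaturated chains, while the interfollicular epidermis makes long fatty acids for its water barrier. The chain of enzymes is shared: citrate is split to acetyl-CoA by ATP citrate lyase (Acly), carboxylated by acetyl-CoA carboxylases (Acaca, Acacb) and condensed to palmitate by fatty acid synthase (Fasn). Elongases of the Elovl family lengthen the chain, and Scd and Fads desaturases put in double bonds. Fatty acyl-CoA reductases (Far1, Far2) make alcohols that the wax synthases Awat1 and Awat2 join to acyl chains. Acyltransferases such as Gpam, Agpat2, Dgat1 and Dgat2 build triglycerides, and perilipins and Cide proteins coat and enlarge the droplets.

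Promoters of 27 of the 36 members looked up were in the set used here, which came from RefSeq (GRCm38.p6). Each covered 250 bases before and 50 after a start site. The set of promoters used held none for Scd1, Scd2, Fads1, Elovl3, Fabp5, Dgat1, Dgat2, Mogat2 and Cidea. This does not show that RefSeq lacks an entry for them, and Mc5r was not looked up. The letters CCAAT, bound by NF-Y, occurred on either strand in 19 of 36 member promoters (52.8%), against 37.4% of 32841 promoters in the table. The E-box CACGTG occurred in 2 of 36, in Elovl5 and Plin2, against 7.15% of all. The sterol regulatory element TCACNCCAC occurred in 0 of 36, against 1.24% of all. A direct repeat of AGGTCA spaced by 1 base, with at most 1 mismatch, occurred in 1 of 36, in Elovl1, against 0.554% of all. Motifs that overlap were counted separately, and several promoters belong to the same gene. Of the 6 members called between CWO and vehicle in epidermis, 3 had an entry, and their promoters are shown so that the letters behind these counts can be read; capitals mark CCAAT or its reverse complement. Scd3 lies on chromosome 19 from 44203038 to 44203337 on the plus strand, Fads3 on chromosome 19 from 10041298 to 10041597 on the plus strand and Elovl7 on chromosome 13 from 108214154 to 108214453 on the plus strand.
Scd3: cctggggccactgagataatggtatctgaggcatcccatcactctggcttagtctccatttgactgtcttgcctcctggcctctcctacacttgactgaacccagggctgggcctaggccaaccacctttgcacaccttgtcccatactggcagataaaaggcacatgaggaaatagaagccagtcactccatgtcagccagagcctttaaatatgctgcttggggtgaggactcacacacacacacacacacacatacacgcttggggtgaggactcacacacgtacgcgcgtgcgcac
Fads3: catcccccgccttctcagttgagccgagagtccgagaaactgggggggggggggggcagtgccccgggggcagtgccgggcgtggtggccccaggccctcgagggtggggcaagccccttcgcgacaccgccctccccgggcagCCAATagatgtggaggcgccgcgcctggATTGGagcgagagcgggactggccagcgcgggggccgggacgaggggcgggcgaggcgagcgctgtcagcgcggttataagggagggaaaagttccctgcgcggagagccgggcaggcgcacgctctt
Elovl7: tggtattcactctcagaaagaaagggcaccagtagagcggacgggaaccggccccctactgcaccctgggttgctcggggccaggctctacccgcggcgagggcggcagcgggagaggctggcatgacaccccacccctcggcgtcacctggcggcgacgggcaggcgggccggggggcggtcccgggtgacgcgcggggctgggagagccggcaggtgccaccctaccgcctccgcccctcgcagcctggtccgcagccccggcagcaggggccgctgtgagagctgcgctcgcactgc
Fads3 held 2 of these boxes, starting at -106 and -78 from its start site, and Scd3 and Elovl7 held none of the 4 motifs in this window.

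Libraries held 11.1 M to 24.6 M fragments, as recovered from FPKM and their deposited intervals. Epidermis carried keratinocyte markers in every library, with summed levels of 26753 to 27844 FPKM with CWO and 22557 to 29167 FPKM with vehicle. The sum of 12 skeletal muscle markers was 4109, 3236 and 4176 FPKM in CWO epidermis, against 12069.6, 19147 and 3897 FPKM in vehicle epidermis, so 2 vehicle libraries stood apart. In papillomas the muscle sum lay between 9.47 and 67.8 FPKM with CWO and between 54.0 and 424 FPKM with vehicle. The 5 sebaceous markers that are not members (Krt79, Mgst1, Gata6, Soat1 and Lrig1) summed to 97.0 to 126 FPKM in CWO papillomas and 92.4 to 217 FPKM in vehicle papillomas, against 1420.1 to 1718 FPKM in CWO epidermis and 968 to 1082 FPKM in vehicle epidermis. The sum of 6 dermal fibroblast markers was 363 to 558 FPKM in CWO papillomas and 335 to 493 FPKM in vehicle papillomas, against 11.8 to 23.4 FPKM in CWO epidermis and 28.2 to 68.7 FPKM in vehicle epidermis. In bulk RNA, fewer sebaceous cells and less RNA per cell cannot be told apart.

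By mean level, Fabp5 was the most abundant member in both papilloma groups and in CWO epidermis, and Scd1 in vehicle epidermis. Fabp5, a fatty acid binding protein of keratinocytes, stood first in papillomas at 4333 ± 84.7 FPKM with CWO and 4432 ± 63.1 FPKM with vehicle (mean ± SD, n = 3 libraries here and below). In vehicle epidermis Scd1, the main skin stearoyl-CoA desaturase, stood first at 836 ± 112 FPKM, and Fabp5 followed at 752 ± 37.9 FPKM, with overlapping libraries. In CWO epidermis Fabp5 averaged 1203 ± 128 FPKM and Scd1 1027 ± 158 FPKM, again overlapping. Elovl1, which extends saturated chains, came next in papillomas at 203 ± 26.8 FPKM with CWO and 214 ± 27.7 FPKM with vehicle, and stood after both in epidermis at 441 ± 84.96 FPKM with CWO and 505 ± 83.0 FPKM with vehicle. Its locus overlaps Cdc20 in the files, which had 9.45 to 67.9 FPKM. Dgat2, which makes triglycerides, followed in papillomas at 158 ± 15.9 FPKM with CWO and 152 ± 18.3 FPKM with vehicle, and its highest CWO library lay level with the lowest of Elovl1 at 173 FPKM. At the low end, the monoacylglycerol acyltransferases Mogat1 and Mogat2 stayed under 1 FPKM in all 12 libraries.

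**Figure D1:**
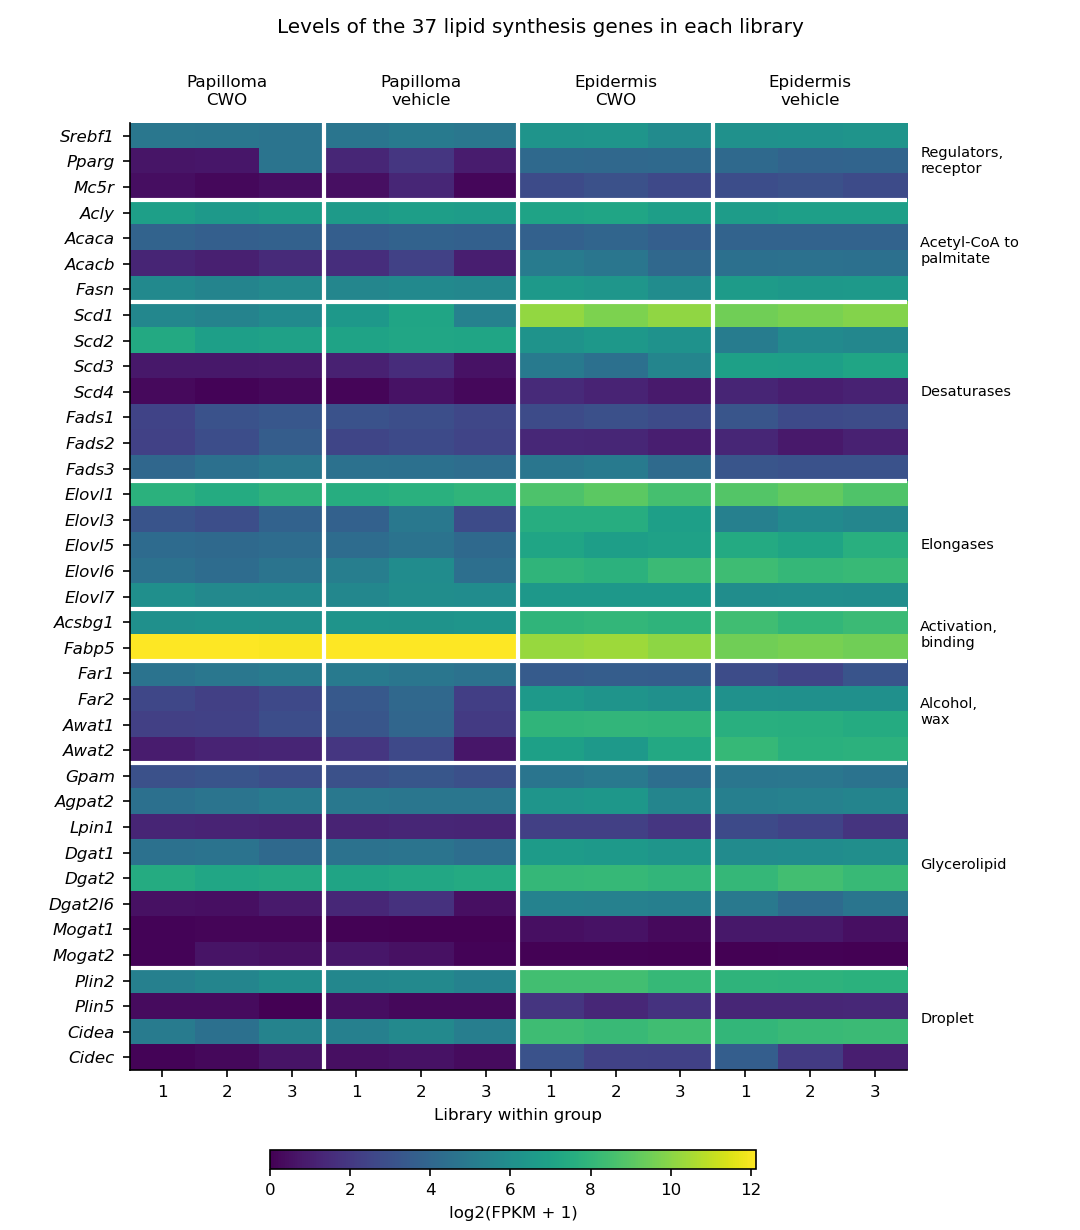
Level of each of the 37 genes (rows, grouped by role) in each of the 12 libraries (columns, grouped by tissue and treatment) as log2(FPKM + 1), where 1 is the pseudocount. Most genes are darker, so lower, in the 6 papilloma libraries than in the 6 epidermis libraries, while Fabp5, Far1, Scd2 and Fads2 are brighter there. Among papillomas, Pparg is brightest in CWO library 3.

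In epidermis 24 h after CWO, 6 of the 35 members tested were called. The elongases Elovl3 and Elovl7, the front-end desaturase family member Fads3, the binding protein Fabp5 and the triglyceride enzyme Dgat1 were higher, and the desaturase Scd3 was lower. The 5 of 35 higher stands against 1.82% of the 12287 genes tested, and 1 of 35 lower against 0.179%. The median log2 fold change was 0.16 over the members tested and 0.02 over all genes tested. All 3 CWO libraries lay above all 3 vehicle libraries for 12 of 35 members (34.3%), against 12.1% of genes, and below them for 2 of 35 (5.71%), against 6.66%. The 2 members under the filter, Mogat1 and Mogat2, gave exact permutation p of 0.2 and 1 (two-sided), where 3 against 3 libraries cannot go below 0.1.

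Desaturases moved in both directions. Scd3, a stearoyl-CoA desaturase that in mice is expressed in skin sebaceous glands (mm9 chromosome 19, 44277778 to 44318506), had 31.3, 21.4 and 44.7 FPKM in CWO epidermis, against 119, 114 and 137 FPKM in vehicle epidermis. The groups did not overlap (log2 fold change -1.95, SE 0.231, adjusted p = 0.00739, limma; 95% interval -2.48 to -1.42). Its neighbour on the same chromosome, Scd1, had 1131, 845 and 1106 FPKM in CWO epidermis, against 725, 833 and 949.6 FPKM in vehicle epidermis, which overlapped (log2 fold change 0.29, SE 0.165, adjusted p = 0.486). Scd2, the form prominent in brain and in early life, had 74.2, 86.3 and 70.5 FPKM in CWO epidermis, against 33.7, 54.3 and 47.7 FPKM in vehicle epidermis, without overlap, yet missed the threshold in limma (log2 fold change 0.78, SE 0.176, adjusted p = 0.0723). The authors' deposited table, which holds 176 genes, lists Scd2 at a log2 fold change of 0.77 with an adjusted p of 0.00498 (DESeq). It also lists Scd3 at -2.07, Fads3 at 1.66, Fabp5 at 0.66 and Elovl3 at 1.8, but not Dgat1 or Elovl7. Scd3 made up a smaller part of the summed Scd1 to Scd4 level, at 2.81% ± 0.749 in CWO epidermis, against 12.3% ± 1.09 in vehicle epidermis (SD, n = 3 each, exact permutation p = 0.1, the smallest possible). Of the transcript stretches of 50 bases of each Scd gene, 4.01% to 6.57% also occur in another gene. Fads3, a relative of the delta-5 and delta-6 desaturases Fads1 and Fads2 (mm9 chromosome 19, 10116038 to 10134161), had 26.5, 30.7 and 17.4 FPKM in CWO epidermis, against 8.30, 7.44 and 7.25 FPKM in vehicle epidermis. Every CWO library exceeded every vehicle library (log2 fold change 1.54, SE 0.196, adjusted p = 0.00868), while Fads1 had 5.86, 6.80 and 5.88 FPKM in CWO epidermis, against 8.26, 5.70 and 6.17 FPKM in vehicle epidermis and Fads2 1.52, 1.44 and 0.995 FPKM in CWO epidermis, against 1.45, 0.769 and 1.20 FPKM in vehicle epidermis, both overlapping and not called.

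Among the elongases, Elovl3, which in mouse skin serves sebaceous glands and hair follicles (mm9 chromosome 19, 46206389 to 46210184), showed the largest rise of the 5 called higher. Its levels were 187, 189 and 115 FPKM in CWO epidermis, against 38.2, 55.0 and 45.8 FPKM in vehicle epidermis (log2 fold change 1.78, SE 0.213, adjusted p = 0.00747), with no overlap. Its locus overlaps Pitx3 in the files, which reached at most 0.544 FPKM in any library. Elovl7, an elongase of saturated chains (mm9 chromosome 13, 109004598 to 109077301), had 87.0, 86.8 and 88.6 FPKM in CWO epidermis, against 60.8, 62.0 and 59.6 FPKM in vehicle epidermis. These libraries were close to each other within each group, and the change was small (log2 fold change 0.52, SE 0.0901, adjusted p = 0.0287). Elovl5, which extends polyunsaturated chains, had 138, 111 and 121 FPKM in CWO epidermis, against 172, 136 and 198 FPKM in vehicle epidermis, overlapping and not called (log2 fold change -0.44, SE 0.154, adjusted p = 0.229), as was Elovl6, the palmitate elongase, with 245, 219.9 and 305 FPKM in CWO epidermis, against 333, 268 and 288 FPKM in vehicle epidermis. Elovl1 had 421, 535 and 369 FPKM in CWO epidermis, against 469, 599.7 and 446 FPKM in vehicle epidermis and was not called. Elovl3 held 15.2% ± 3.19 of the summed level of the 5 elongases in CWO epidermis, against 4.29% ± 0.679 in vehicle epidermis (SD, n = 3 each, exact permutation p = 0.1, the smallest possible).

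Fabp5 (mm9 chromosome 3, 10012606 to 10016610) had 1230.2, 1315 and 1064 FPKM in CWO epidermis, against 731, 796 and 729 FPKM in vehicle epidermis, and the groups did not overlap (log2 fold change 0.67, SE 0.132, adjusted p = 0.0449). Of its transcript stretches of 50 bases, 21.1% also occur in other genes, 19.6% in the gene model Gm6166. Dgat1, which finishes triglycerides and in mouse skin also acts on wax esters and retinol (mm9 chromosome 15, 76332445 to 76342248), had 99.7, 94.3 and 77.8 FPKM in CWO epidermis, against 57.4, 58.3 and 62.0 FPKM in vehicle epidermis, without overlap (log2 fold change 0.60, SE 0.118, adjusted p = 0.0460). Its partner in triglyceride synthesis, Dgat2, had 267, 280.2 and 252 FPKM in CWO epidermis, against 270.3, 345 and 289.6 FPKM in vehicle epidermis, overlapping and not called. The wax synthases lay in opposite directions, neither of them called. Awat2 (mm9 chromosome X, 97597561 to 97607901) had 116, 92.9 and 157 FPKM in CWO epidermis, against 279, 207 and 219 FPKM in vehicle epidermis, without overlap, and just missed the threshold (log2 fold change -0.96, SE 0.198, adjusted p = 0.0533). Awat1 (mm9 chromosome X, 97767586 to 97773545) had 246, 255 and 239.7 FPKM in CWO epidermis, against 201, 194 and 177 FPKM in vehicle epidermis, also without overlap but in the other direction (log2 fold change 0.38, SE 0.102, adjusted p = 0.126). Awat2 held 18.02% ± 4.52 of the summed level of the 6 genes of the Dgat2 family in CWO epidermis, against 31.2% ± 4.41 in vehicle epidermis (SD, n = 3 each, exact permutation p = 0.1, the smallest possible).

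Several further members were higher in every CWO library without being called by limma. Far1, a reductase that makes fatty alcohols for ether lipids, had 10.2, 11.1 and 10.7 FPKM in CWO epidermis, against 6.09, 4.596 and 7.84 FPKM in vehicle epidermis (log2 fold change 0.72, SE 0.173, adjusted p = 0.0875). Plin2, the general droplet coat protein, had 348, 353 and 279.8 FPKM in CWO epidermis, against 237, 230.0 and 215 FPKM in vehicle epidermis (log2 fold change 0.52, SE 0.124, adjusted p = 0.0880). Agpat2, the second acyltransferase of glycerolipid synthesis, had 80.4, 83.6 and 44.8 FPKM in CWO epidermis, against 36.6, 39.2 and 43.7 FPKM in vehicle epidermis (log2 fold change 0.74, SE 0.224, adjusted p = 0.165). Dgat2l6, a skin member of the Dgat2 family, had 40.6, 39.8 and 36.6 FPKM in CWO epidermis, against 28.7, 18.1 and 25.6 FPKM in vehicle epidermis (log2 fold change 0.69, SE 0.166, adjusted p = 0.0860). Plin5, a droplet coat of oxidative tissues, was low, with 2.67, 1.53 and 2.44 FPKM in CWO epidermis, against 1.47, 1.47 and 1.52 FPKM in vehicle epidermis (log2 fold change 0.35, SE 0.170, adjusted p = 0.392). None of the regulators or of the enzymes from acetyl-CoA to palmitate was called: Srebf1, the lipogenic transcription factor SREBP-1, had 76.4, 77.9 and 56.5 FPKM in CWO epidermis, against 69.3, 71.4 and 77.2 FPKM in vehicle epidermis, and Fasn 92.2, 81.9 and 58.2 FPKM in CWO epidermis, against 99.0, 86.4 and 93.7 FPKM in vehicle epidermis. Pparg, the nuclear receptor of sebocyte and adipocyte differentiation, had 16.6, 16.3 and 16.5 FPKM in CWO epidermis, against 16.6, 13.3 and 13.8 FPKM in vehicle epidermis, and the melanocortin receptor Mc5r, which drives sebum output in mice, 5.92, 7.11 and 5.48 FPKM in CWO epidermis, against 6.39, 6.96 and 5.84 FPKM in vehicle epidermis. The 95% intervals were -0.38 to 0.26 for Srebf1 and -0.67 to 0.10 for Fasn on the log2 scale.

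**Figure D2:**
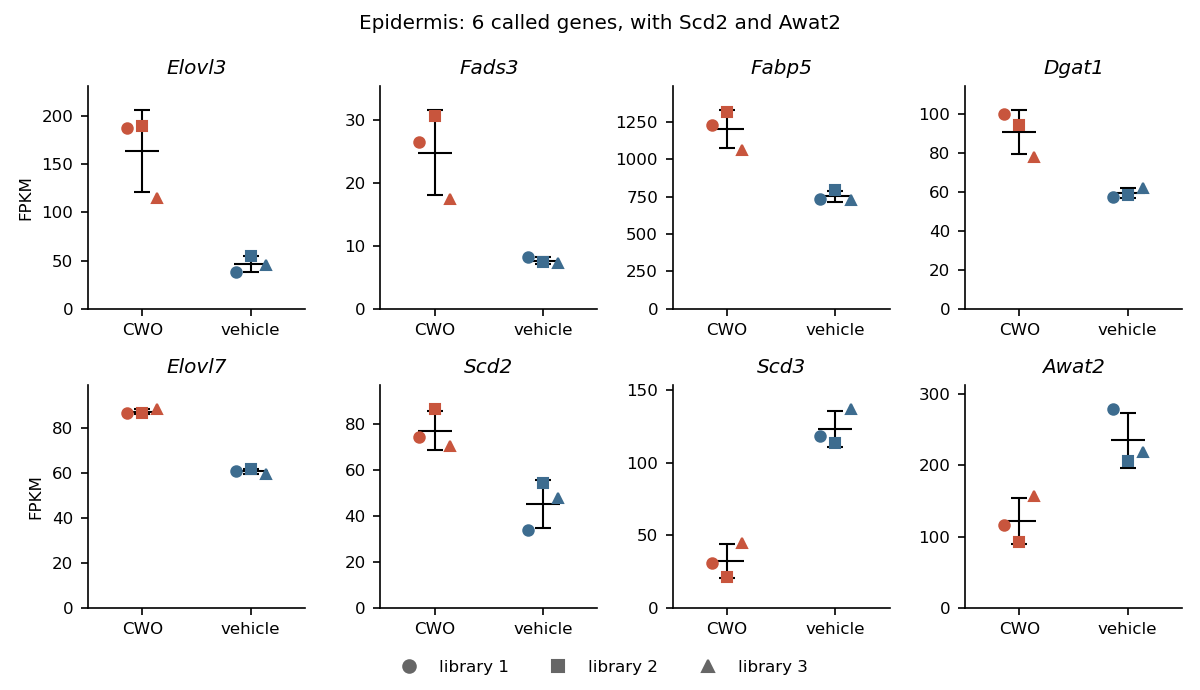
FPKM of 8 members in the 3 CWO and 3 vehicle libraries of epidermis, each on its own axis from 0; symbols mark library numbers, horizontal bars the mean and whiskers 1 SD. In all 8 panels the 2 groups do not overlap, with Scd3 and Awat2 lower and the other 6 higher with CWO, but Scd2 and Awat2 missed the adjusted threshold.

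The sebaceous marker sum was 1718, 1534 and 1420.1 FPKM in CWO epidermis, against 968, 1034 and 1082 FPKM in vehicle epidermis, with 0 of 5 markers called. Dermal fibroblast markers summed to 23.4, 11.8 and 21.7 FPKM in CWO epidermis, against 68.7, 46.0 and 28.2 FPKM in vehicle epidermis, with 2 of 5 tested called lower (Col1a1 and Col1a2). Of 12 muscle markers 0 were called. Hair follicle markers summed to 31.1, 357 and 2.69 FPKM in CWO epidermis, against 9.42, 1.74 and 229 FPKM in vehicle epidermis. Brown adipocyte markers summed to 60.6, 45.8 and 75.8 FPKM in CWO epidermis, against 173, 218 and 57.3 FPKM in vehicle epidermis. The white adipocyte sum was 312, 321 and 222 FPKM in CWO epidermis, against 510, 129 and 103 FPKM in vehicle epidermis. The part of these lists in the members' results was not tested. Without the 2 vehicle libraries rich in muscle markers, the log2 fold changes were -2.11 for Scd3, 1.78 for Elovl3 and 1.61 for Fads3. With the lone vehicle library left, assumed to vary like the CWO group, 0 members and 12 genes were called. Elovl7, Fabp5 and Dgat1 lost their calls when CWO library 1 or 2 or vehicle library 1 or 2 was left out, and Fabp5 also without vehicle library 3, with log2 fold changes of 0.52 to 0.53 for Elovl7, 0.61 to 0.71 for Fabp5 and 0.53 to 0.59 for Dgat1. Scd3, Elovl3 and Fads3 were called in all 6 such fits, and without CWO library 3 the count was 9. Without the filter on low values Elovl7 alone kept its call, and Scd3, Elovl3 and Fads3 had adjusted p of 0.0567, 0.0566 and 0.0585 (limma). Over all 17 alternatives the call was lost in 11 for Dgat1, in 9 for Fabp5, in 8 for Elovl7 and in 2 each for Scd3, Elovl3 and Fads3; median-ratio scaling and the replicate block each ended the calls of Dgat1, Fabp5 and Elovl7. Of 66 other lipid synthesis genes tested, 3 were called higher, against 1.82% of all genes tested, and 0 lower, against 0.179%. The fatty acid transporter Cd36, also on the white adipocyte list, had 30.1, 26.9 and 31.0 FPKM in CWO epidermis, against 19.1, 16.1 and 16.3 FPKM in vehicle epidermis (log2 fold change 0.74, SE 0.117, adjusted p = 0.0211, limma). The others were the sphingolipid desaturase Degs1 (log2 fold change 0.70, SE 0.104, adjusted p = 0.0164) and the monoacylglycerol lipase Mgll (log2 fold change 1.04, SE 0.155, adjusted p = 0.0166). At an unadjusted p under 0.05, 14 of the 35 members and 1810 of all genes passed.

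In papillomas after 6 weeks, 0 of 29 members tested were called between CWO and vehicle by limma, and 0 of all 12142 genes tested (0%). At an unadjusted p under 0.05, 0 members and 307 of all genes passed, and limma-voom on recovered fragments called 0 genes; a fit of all 12 libraries called 1 gene and 0 members. The median log2 fold change was -0.07 over the members and -0.01 over all genes tested. All 3 CWO libraries lay below all 3 vehicle libraries for 1 of 29 members (3.45%), Acsbg1, against 3.56% of genes, and above them for 0 of 29, against 3.03%. The smallest p belonged to Elovl6, Acsbg1 and Far2, and none passed.

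Elovl6 had 22.1, 18.5 and 24.1 FPKM in CWO papillomas, against 35.3, 58.1 and 20.3 FPKM in vehicle papillomas (log2 fold change -0.67, SE 0.324, adjusted p = 1.00, limma; 95% interval -1.43 to 0.08). Far2, the reductase that makes alcohols for sebum waxes, had 5.02, 3.86 and 5.43 FPKM in CWO papillomas, against 9.46, 15.9 and 3.78 FPKM in vehicle papillomas (log2 fold change -0.72, 95% interval -1.66 to 0.22). In both genes vehicle library 2 was the highest and vehicle library 3 lay within or below the CWO libraries. Without vehicle library 2 the log2 fold changes were -0.31 for Elovl6 and -0.30 for Far2. Acsbg1, an acyl-CoA synthetase, had 67.1, 72.5 and 70.1 FPKM in CWO papillomas, against 75.3, 73.8 and 79.0 FPKM in vehicle papillomas (log2 fold change -0.12, 95% interval -0.28 to 0.04). The CWO libraries were lower for it without overlap, but it was not called.

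Within the vehicle papillomas, 1 library stood high for many members. Vehicle library 2 was the highest of the 6 for 18 of 37 members, among them Scd1, Scd3, Elovl3, Elovl6, Far2, Awat1, Awat2, Mc5r and Dgat2l6. The share of all genes for which this library was highest was not counted, so the pattern cannot be called particular to the members. Scd1 had 48.6, 41.6 and 54.7 FPKM in CWO papillomas, against 86.3, 139 and 39.5 FPKM in vehicle papillomas (log2 fold change -0.69, 95% interval -1.61 to 0.22). Awat1 had 3.89, 4.10 and 6.38 FPKM in CWO papillomas, against 8.45, 15.2 and 3.20 FPKM in vehicle papillomas, and Awat2 0.867, 1.29 and 1.38 FPKM, against 2.82, 5.41 and 0.666 FPKM. Elovl3 had 7.96, 6.61 and 13.0 FPKM in CWO papillomas, against 12.7, 27.5 and 5.89 FPKM in vehicle papillomas. In each of these 4 genes, vehicle library 2 was highest and vehicle library 3 lowest of the 6. The sebaceous marker sum ran 97.0, 121 and 126 FPKM in CWO papillomas, against 136, 217 and 92.4 FPKM in vehicle papillomas, and the hair follicle sum was 62.8, 319.9 and 421 FPKM, against 92.6, 584 and 417 FPKM. Skeletal muscle markers summed to 9.47, 67.8 and 11.8 FPKM in CWO papillomas, against 54.0, 424 and 59.1 FPKM in vehicle papillomas, and brown adipocyte markers to 0.460, 0.514 and 0.548 FPKM, against 0.650, 5.12 and 1.31 FPKM. Vehicle library 2 was highest for these 4 lists, but not for the keratinocyte, macrophage, dermal fibroblast or full white adipocyte sums. The part of any list in the members' values was not tested.

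Pparg stood apart in 1 library. It had 0.617, 0.649 and 24.5 FPKM in CWO papillomas, against 1.46, 2.77 and 0.888 FPKM in vehicle papillomas, and the level of CWO library 3 rested on 680.0 recovered fragments. The group difference was not called (log2 fold change 0.65, SE 0.988, 95% interval -1.65 to 2.95). The 12 white adipocyte markers summed to 4304, 4335 and 4586 FPKM in CWO papillomas, against 5244, 5048 and 5080 FPKM in vehicle papillomas. Most of that sum was Fabp4, with 4267, 4305 and 4542 FPKM in CWO papillomas, against 5207, 4991 and 5036 FPKM in vehicle papillomas. The 11 others, a split made after the values were seen, summed to 36.2, 29.8 and 44.7 FPKM in CWO papillomas, against 37.04, 57.1 and 43.6 FPKM in vehicle papillomas, and Adipoq reached at most 0.339 FPKM in CWO papillomas. The part of these markers in the Pparg level was not tested. CWO library 3 was also the highest of the 6 for Fads1, Fads2, Fads3, Far1, Agpat2, Plin2 and Cidec. Fads2, for example, had 4.03, 6.40 and 11.0 FPKM in CWO papillomas, against 4.81, 5.53 and 4.69 FPKM in vehicle papillomas.

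**Figure D3:**
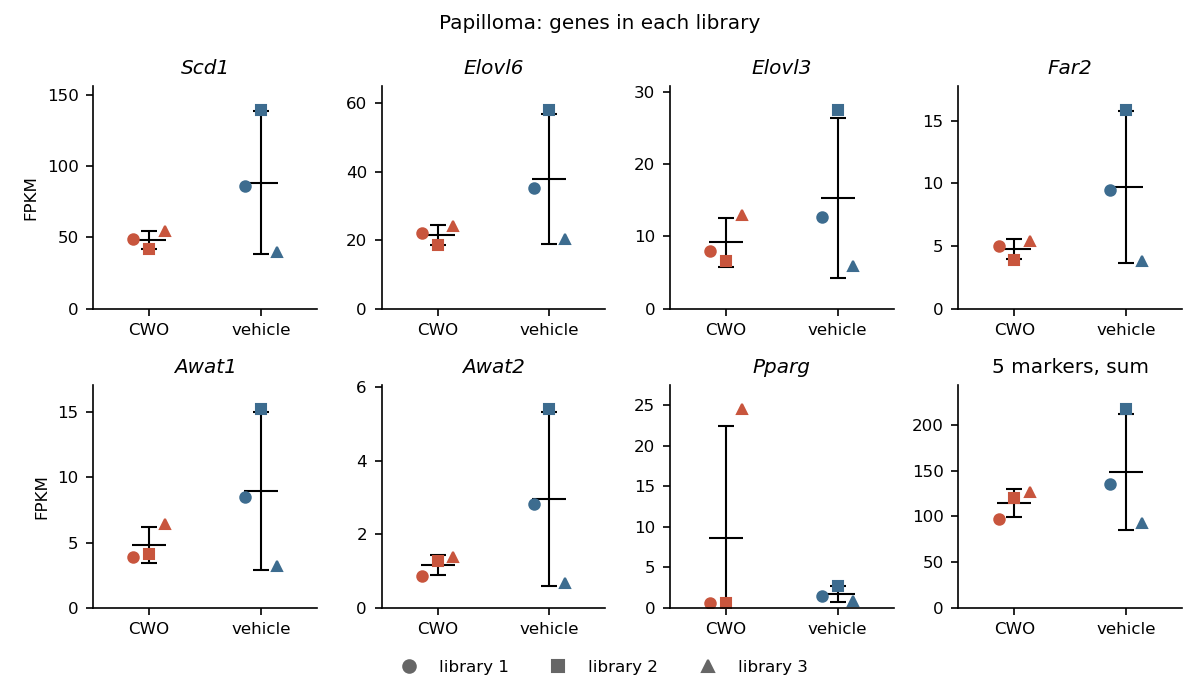
FPKM of 7 members, and the sum of 5 sebaceous markers, in the 3 CWO and 3 vehicle libraries of papillomas, each on its own axis from 0; symbols mark library numbers, horizontal bars the mean and whiskers 1 SD, ending at 0 where they would pass below it. Vehicle library 2 is the highest point in all panels but that of Pparg, where CWO library 3 stands alone at 24.5 FPKM.

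Intervals bound how far other members could differ between treatments in papillomas. Fasn had 52.2, 44.0 and 51.4 FPKM in CWO papillomas, against 46.9, 52.8 and 48.5 FPKM in vehicle papillomas (log2 fold change -0.01, 95% interval -0.22 to 0.20). Acly had 115, 93.1 and 106 FPKM, against 98.1, 110.0 and 103 FPKM (95% interval -0.21 to 0.23), and Acaca 13.5, 11.9 and 12.4 FPKM, against 11.5, 13.1 and 12.3 FPKM (95% interval -0.17 to 0.23). Srebf1 had 26.8, 26.1 and 24.8 FPKM, against 25.1, 29.8 and 27.3 FPKM (95% interval -0.27 to 0.12). The genes called in epidermis gave log2 fold changes in papillomas of -0.50 for Elovl3, 0.02 for Fads3, -0.03 for Fabp5, -0.11 for Dgat1 and 0.02 for Elovl7. The 8 members that fell under the filter were Mc5r, Scd3, Scd4, Dgat2l6, Mogat1, Mogat2, Plin5 and Cidec, with exact permutation p of 0.1 to 0.8. Of these, Mogat1 alone reached 0.1, with 2 recovered fragments in each CWO library, against 1, 0 and 0 in the vehicle libraries, too few for a level. The 58 other lipid synthesis genes tested gave 0 calls too.

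Whether the CWO effect differed between papillomas and epidermis was tested as the difference of its 2 effects, in 1 fit of all 12 libraries. It called 1 of 35 members, lower, against 0.736% of the 13184 genes tested, and 0 higher, against 0.0303%. Fads3 was that member: its CWO effect was smaller in papillomas, where it had 15.7, 21.5 and 27.0 FPKM with CWO and 21.7, 21.4 and 18.9 FPKM with vehicle, than in epidermis (difference of log2 fold changes -1.52, SE 0.287, adjusted p = 0.0331, limma). Its call was lost in 9 of the 12 fits that left out 1 library (all but those without CWO epidermis library 3, vehicle epidermis library 3 or CWO papilloma library 3), with log2 differences of -1.58 to -1.33 in those 9. Scd3 came next, at the edge of the threshold and in the other direction (difference of log2 fold changes 1.68, SE 0.347, limma adjusted p = 0.05003). Scd3 was called under median-ratio scaling. Its papilloma levels were 0.721, 0.740 and 0.803 FPKM with CWO and 1.14, 1.86 and 0.529 FPKM with vehicle. It entered this fit through epidermis, and at such papilloma levels the pseudocount of 1 understates any change. The Scd3 difference therefore cannot show whether its response depends on tissue. Fabp5 followed (difference of log2 fold changes -0.71, SE 0.155, adjusted p = 0.0644), with papilloma levels of 4406, 4354 and 4240.0 FPKM with CWO and 4465, 4359 and 4471 FPKM with vehicle. Elovl3 had the largest difference in size but a wide error (difference of log2 fold changes -2.28, SE 0.583, adjusted p = 0.116), with overlapping papilloma groups. At an unadjusted p under 0.05, 11 of the 35 members and 1305 of all 13184 genes passed. Treatment lengths differ between tissues, at 24 h and 6 weeks, so tissue and time cannot be told apart in this comparison.

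More members were called between tissues than between treatments. In CWO papillomas against CWO epidermis 29 of 34 members tested were called, 25 of them lower, against 39.7% of the 12689 genes tested, and 4 higher, against 29.1%. In vehicle papillomas against vehicle epidermis 31 of 35 were called, 26 lower, against 38.3% of the 12788 genes tested, and 5 higher, against 31.8%. Cidec, Dgat2l6, Mc5r, Plin5 and Scd3 with CWO, and Cidec, Plin5 and Scd4 with vehicle, were under 1 FPKM in every papilloma library. They passed the filter through epidermis alone, so lower was the only direction in which they could be called. Their calls therefore add nothing on direction to the counts here. The median log2 fold change of the members was -1.71 with CWO and -1.38 with vehicle, and over all genes tested -0.12 and -0.07. These comparisons share no library. Of the 34 members tested in both, 24 were lower in both, 4 were higher in both (Scd2, Fads2, Fabp5 and Far1), 3 were called in 1 only (Pparg, Fads3 and Elovl7), 3 in neither (Acly, Acaca and Fads1), and 0 in opposite directions. Tissue here includes carcinogen, tumour promoter, harvest method and time, which cannot be told apart. All 5 sebaceous markers were called lower in CWO papillomas and in vehicle papillomas, as were all 12 muscle markers under both treatments, while 5 of 6 fibroblast markers were called higher under both. White adipocyte markers were called lower for 9 and higher for 2 of 11 tested with CWO, and lower for 7 and higher for 2 of 9 with vehicle. Under each treatment the 1 brown adipocyte marker tested was called lower, 3 of 6 hair follicle markers higher, and 5 of 7 macrophage markers higher and 2 lower. The part of these lists in the members' values was not tested.

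**Figure D4:**
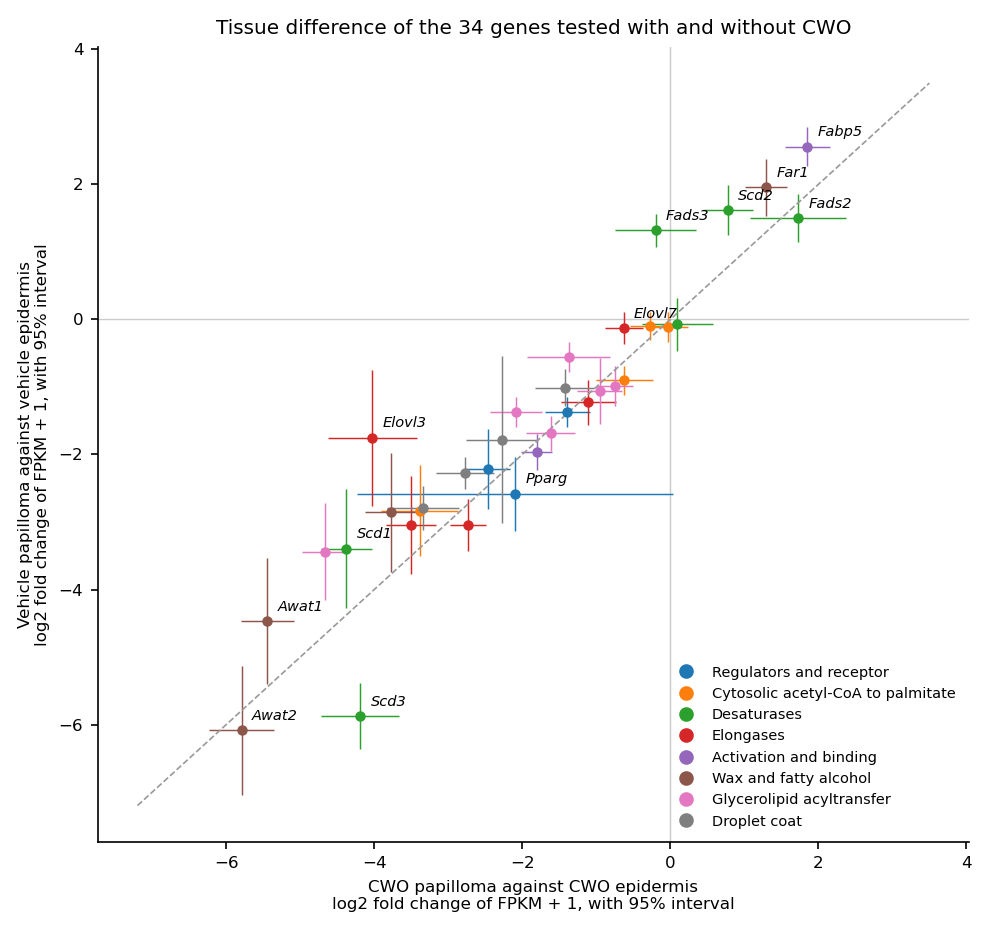
Log2 fold change of FPKM + 1 between papilloma and epidermis for the 34 members tested under both treatments, with CWO on the horizontal and vehicle on the vertical axis, whiskers for 95% intervals, colours for roles and a dashed line of equality. Awat2, Awat1, Scd1 and Scd3 lie far below 0 on both axes, Fabp5, Far1, Scd2 and Fads2 above 0 on both, and Pparg has a wide horizontal interval.

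Awat2 was among the members with the lowest log2 fold changes in both comparisons. It had 0.867, 1.29 and 1.38 FPKM in CWO papillomas and 2.82, 5.41 and 0.666 FPKM in vehicle papillomas, and averaged 122 ± 32.2 FPKM in CWO epidermis and 235 ± 38.7 FPKM in vehicle epidermis. Its log2 fold change was -5.79 with CWO and -6.09 with vehicle (SE 0.192 and 0.416, adjusted p = 2.00e-07 and 5.87e-06, limma). Awat1 was lower too, with log2 fold changes of -5.45 with CWO and -4.47 with vehicle (SE 0.157 and 0.407). The reductases differed in direction. Far2 had 90.1, 77.5 and 67.1 FPKM in CWO epidermis and 68.5, 67.8 and 66.1 FPKM in vehicle epidermis, so it was lower in papillomas (log2 fold change -3.78 with CWO, -2.86 with vehicle), while Far1 had 23.8, 27.2 and 32.2 FPKM in CWO papillomas and 31.2, 25.7 and 22.9 FPKM in vehicle papillomas and was higher there (log2 fold change 1.29 with CWO, 1.96 with vehicle; adjusted p = 3.44e-05 and 3.16e-05). Far1 made up 85.2% ± 2.52 of the summed Far1 and Far2 level in CWO papillomas and 74.8% ± 12.1 in vehicle papillomas, against 12.1% ± 1.85 in CWO epidermis and 8.37% ± 2.13 in vehicle epidermis (SD, n = 3 each; exact permutation p = 0.1 in each treatment, the smallest possible). In the files the Far2 locus overlaps Ergic2, which had 7.202 to 18.1 FPKM, and 15.0% of Far2 transcript stretches of 50 bases occur in another gene.

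The stearoyl-CoA desaturases lay in opposite directions between tissues. Scd1 was lower in papillomas (log2 fold change -4.38 with CWO, -3.39 with vehicle; SE 0.149 and 0.384), and Scd3 likewise (log2 fold change -4.19 with CWO, -5.87 with vehicle; SE 0.231 and 0.211). Scd2 had 163, 116 and 122 FPKM in CWO papillomas and 132, 143 and 141 FPKM in vehicle papillomas and was higher (log2 fold change 0.77 with CWO, 1.62 with vehicle; adjusted p = 0.00161 and 4.41e-05). Scd2 made up 72.8% ± 4.03 of the summed Scd level in CWO papillomas and 62.7% ± 14.01 in vehicle papillomas, against 6.94% ± 1.83 in CWO epidermis and 4.48% ± 0.828 in vehicle epidermis (SD, n = 3 each; exact permutation p = 0.1 in each treatment, the smallest possible). The summed level itself was 183 ± 27.4 FPKM in CWO papillomas and 228 ± 52.2 FPKM in vehicle papillomas, against 1138 ± 159.6 FPKM and 1006 ± 128 FPKM in CWO and vehicle epidermis. Scd4, a form first described in mouse heart, had 0.251, 0.0846 and 0.202 FPKM in CWO papillomas and 0.137, 0.526 and 0.179 FPKM in vehicle papillomas, against 1.74, 1.31 and 0.824 FPKM in CWO epidermis and 1.39, 1.05 and 1.24 FPKM in vehicle epidermis. Scd4 was called lower with vehicle (log2 fold change -0.81) and was under the filter with CWO (exact permutation p = 0.1, the smallest possible).

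**Figure D5:**
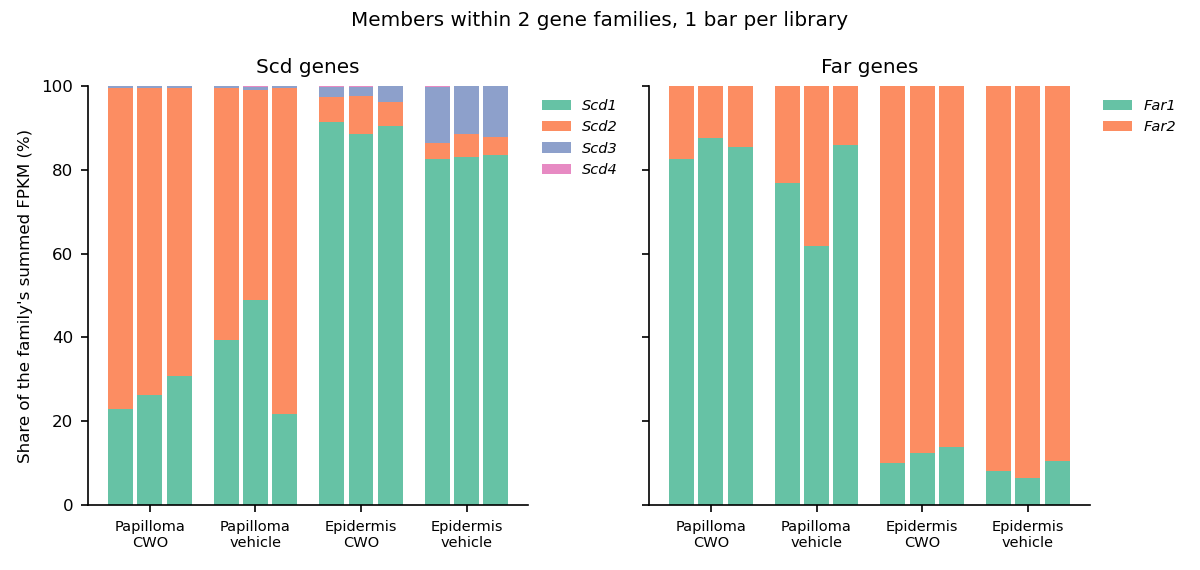
Share of the summed FPKM (percent, from 0 to 100) held by each Scd gene (left) and each Far gene (right), 1 bar per library, papilloma groups left of epidermis groups and CWO left of vehicle. Scd2 and Far1 hold the larger share in all 6 papilloma libraries, and Scd1 and Far2 in all 6 epidermis libraries; vehicle papilloma library 2 has the largest Scd1 and Far2 shares among papillomas.

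Polyunsaturated desaturases differed among themselves. Fads2 was higher in papillomas, where it had 4.81, 5.53 and 4.69 FPKM with vehicle (log2 fold change 1.73 with CWO, 1.501 with vehicle). Fads1 had 4.47, 7.27 and 8.90 FPKM in CWO papillomas and 7.22, 6.64 and 5.06 FPKM in vehicle papillomas and was called in neither comparison. Fads3 was higher in vehicle papillomas than in vehicle epidermis (log2 fold change 1.32, SE 0.107, adjusted p = 1.40e-05), but between the CWO groups its libraries overlapped (log2 fold change -0.20, SE 0.239, adjusted p = 0.479). All 5 elongases were lower in CWO papillomas, and 4 in vehicle papillomas. Elovl5 had 17.7, 16.7 and 18.3 FPKM in CWO papillomas and 18.7, 23.4 and 16.6 FPKM in vehicle papillomas, Elovl1 212, 173 and 225 FPKM in CWO papillomas and 189, 209.7 and 244 FPKM in vehicle papillomas and Elovl7 65.2, 50.8 and 53.4 FPKM in CWO papillomas and 48.3, 60.4 and 58.2 FPKM in vehicle papillomas. Log2 fold changes with CWO and vehicle were -2.74 and -3.04 for Elovl5, -3.51 and -3.05 for Elovl6, and -4.03 and -1.75 for Elovl3, whose call with vehicle was lost without vehicle epidermis libraries 1 and 2. They were -1.11 and -1.23 for Elovl1, and -0.63 and -0.13 for Elovl7, the last not called.

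Of the early steps, Acly and Acaca were called in neither comparison. Acly had 131, 138 and 110.2 FPKM in CWO epidermis and 103, 113 and 116 FPKM in vehicle epidermis, overlapping its papilloma levels, and its log2 fold change between tissues was -0.27 with CWO and -0.09 with vehicle. Acaca, the cytosolic carboxylase, had 12.6, 14.7 and 11.6 FPKM in CWO epidermis and 13.3, 13.4 and 13.4 FPKM in vehicle epidermis, with log2 fold changes of -0.03 and -0.11. Of its transcript stretches of 50 bases, 49.1% also occur in the gene model Gm5182. Fasn was lower in papillomas in both comparisons (log2 fold change -0.62 with CWO, -0.90 with vehicle), but its call with CWO was lost under quantile normalization. Acacb, the carboxylase tied to mitochondria, had 1.35, 1.11 and 1.68 FPKM in CWO papillomas and 2.05, 4.12 and 1.00 FPKM in vehicle papillomas, against 31.7, 25.9 and 16.3 FPKM in CWO epidermis and 21.0, 22.1 and 21.4 FPKM in vehicle epidermis. Every papilloma library was lower than every epidermis library (log2 fold change -3.39 with CWO, -2.84 with vehicle). Among the regulators, Srebf1 was lower, with log2 fold changes of -1.39 with CWO and -1.38 with vehicle. Mc5r had 0.353, 0.187 and 0.364 FPKM in CWO papillomas and 0.410, 1.48 and 0.161 FPKM in vehicle papillomas and was lower, with log2 fold changes of -2.46 and -2.21. Pparg was lower with vehicle (log2 fold change -2.58, SE 0.238, adjusted p = 2.86e-05) but not called with CWO, where papilloma library 3 exceeded every epidermis library (log2 fold change -2.10, SE 0.929, adjusted p = 0.0735).

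The 6 glycerolipid genes tested, acyltransferases and the phosphatase Lpin1, were lower in papillomas in both comparisons. Dgat2, the most abundant of them, had 173, 142 and 161 FPKM in CWO papillomas and 133, 153 and 169.9 FPKM in vehicle papillomas (log2 fold change -0.75 with CWO, -0.98 with vehicle). Dgat1 had 22.3, 23.6 and 16.6 FPKM in CWO papillomas and 22.9, 24.2 and 19.9 FPKM in vehicle papillomas (log2 fold change -2.08 with CWO, -1.37 with vehicle). Gpam, the mitochondrial first acyltransferase, had 7.16, 7.88 and 6.65 FPKM in CWO papillomas and 6.93, 8.35 and 6.79 FPKM in vehicle papillomas, against 24.9, 28.7 and 19.8 FPKM in CWO epidermis and 26.3, 27.3 and 23.8 FPKM in vehicle epidermis. The log2 fold changes of Gpam were -1.62 with CWO and -1.68 with vehicle, without overlap. Agpat2 had 21.0, 24.6 and 31.4 FPKM in CWO papillomas and 28.1, 25.9 and 26.2 FPKM in vehicle papillomas (log2 fold change -1.37 with CWO, -0.55 with vehicle). Lpin1, the phosphatidate phosphatase before diacylglycerol, had 1.42, 1.34 and 1.19 FPKM in CWO papillomas and 1.32, 1.49 and 1.37 FPKM in vehicle papillomas, against 3.86, 3.85 and 2.83 FPKM in CWO epidermis and 5.54, 4.35 and 2.56 FPKM in vehicle epidermis. Lpin1 was lower, with log2 fold changes of -0.95 with CWO and -1.06 with vehicle. Dgat2l6 had 0.481, 0.424 and 0.827 FPKM in CWO papillomas and 1.54, 2.33 and 0.403 FPKM in vehicle papillomas, with log2 fold changes of -4.67 and -3.44. With CWO, Dgat2l6 passed the filter through epidermis alone and could only be called lower. Mogat1 and Mogat2, under the filter, lay apart. Mogat1 averaged 0.110 and 0.0218 FPKM in CWO and vehicle papillomas, against 0.373 and 0.622 FPKM in CWO and vehicle epidermis. Mogat2 averaged 0.368 and 0.415 FPKM in CWO and vehicle papillomas, against 0.0238 and 0.0194 FPKM in CWO and vehicle epidermis. Neither gene overlapped between tissues under either treatment (exact permutation p = 0.1 each, the smallest possible).

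All 4 droplet genes were lower in papillomas under both treatments, but Plin5 and Cidec passed the filter through epidermis alone and could only be called lower. Cidea, which drives droplet fusion and in mice is made in sebocytes, had 32.4, 21.3 and 42.2 FPKM in CWO papillomas and 37.4, 50.8 and 35.2 FPKM in vehicle papillomas, against 327, 298 and 340.2 FPKM in CWO epidermis and 263, 296 and 305 FPKM in vehicle epidermis. Its log2 fold change was -3.34 with CWO and -2.79 with vehicle. Plin2 had 38.1, 44.6 and 59.8 FPKM in CWO papillomas and 47.8, 50.5 and 40.5 FPKM in vehicle papillomas (log2 fold change -2.77 with CWO, -2.28 with vehicle). Plin5 had 0.281, 0.280 and 0 FPKM in CWO papillomas and 0.344, 0.181 and 0.185 FPKM in vehicle papillomas (log2 fold change -1.43 with CWO, -1.01 with vehicle). Cidec, a fat-storing relative of Cidea, was low in papillomas at 0.0964, 0.199 and 0.542 FPKM in CWO papillomas and 0.392, 0.504 and 0.275 FPKM in vehicle papillomas, and scattered in epidermis at 7.29, 4.32 and 4.14 FPKM with CWO and 11.2, 3.34 and 1.04 FPKM with vehicle. Its log2 fold change was -2.27 with CWO and -1.78 with vehicle, where the call was lost with limma-voom, without the trend and without vehicle papilloma library 3. In vehicle epidermis Cidec was highest in library 1, where the 11 white adipocyte markers other than Fabp4 summed to 239 FPKM, against 99.1 and 70.7 FPKM in the other two, and the part of those markers was not tested. Fabp5 and Acsbg1, which bind and activate fatty acids, differed in direction. Acsbg1 had 246, 261 and 233 FPKM in CWO epidermis and 337, 258 and 308 FPKM in vehicle epidermis and was lower in papillomas (log2 fold change -1.80 with CWO, -1.96 with vehicle). Fabp5 was higher (log2 fold change 1.85 with CWO, 2.56 with vehicle; adjusted p = 6.70e-06 and 1.16e-06).

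Of the 65 other lipid synthesis genes tested between CWO papillomas and CWO epidermis, 10 were called higher, against 29.1% of all genes tested, and 39 lower, against 39.7%. Between the vehicle groups, 13 of 64 were higher, against 31.8% of all genes tested, and 38 lower, against 38.3%. Their median log2 fold change was -0.99 with CWO and -0.71 with vehicle. Of those with the smallest p, Fabp4, a binding protein of adipocytes and macrophages from the same family as Fabp5, was higher. It averaged 4371 ± 149 and 5078 ± 114 FPKM in CWO and vehicle papillomas, against 129 ± 40.0 and 111 ± 139 FPKM in CWO and vehicle epidermis (log2 fold change 5.11 with CWO, 6.29 with vehicle). Ppard, the nuclear receptor related to Pparg that is widespread in epidermis, was higher too (log2 fold change 2.09 with CWO, 2.19 with vehicle). Insig2, which holds SREBP proteins in the endoplasmic reticulum, was lower (log2 fold change -2.49 with CWO, -2.04 with vehicle). Tecr, the last enzyme of each elongation round, was lower (log2 fold change -2.08 with CWO, -1.97 with vehicle), as were the acyltransferase relatives Agpat4 (-4.59 and -4.33) and Agpat5 (-2.43 and -2.34). The patatin-like lipid enzymes Pnpla3 (-2.74 and -2.90) and Pnpla5 (-5.30 and -4.57) and Mgll (-4.07 and -2.56) were lower as well.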

How the data were processed

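PolyA RNA of 12 mouse skin libraries was sequenced. FPKM values per gene were made by the authors with bcl2fastq 1.8.4, TopHat2 2.0.4, build mm9 and Cufflinks 2.0.2, per the submitters' processing notes, with parameters not given in the sources used here. The log2 fold changes and adjusted p-values quoted from the authors' deposited tables came from DESeq, per the submitters' processing notes and the file headers. From the deposited FPKM, the 248 symbols with several entries were summed, 741 short non-coding symbols were left out, and values with a status other than OK were treated as missing. Genes with at least 1 FPKM in at least 3 of the libraries fitted were tested on log2(FPKM + 1) with limma 3.58.1 in R 4.3.3 (empirical Bayes with an intensity trend, two-sided), with Benjamini-Hochberg adjustment over all genes tested and a threshold of 0.05. A pseudocount of 1 understates changes of low genes. Only the groups compared entered each fit, except the difference of effects, which used all 12 libraries. Members under the filter were compared by exact permutation tests (scipy 1.17.1, pandas 2.3.3, Python 3.11.15). Fragments per gene, recovered from FPKM and the Cufflinks interval, gave library depths of 11.1 M to 24.6 M. They served limma-voom, and precision at low levels is limited by these depths. The fits were tested on simulated data.

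The members, lists and tests were chosen with earlier results of these data known. 1 gene of the sebaceous marker and other lipid lists is not reported here. Every member is given with its levels, in each library where it was called in at least 1 comparison or had one of the 3 smallest p where fewer than 3 were called; of other lipid genes, at most 6 called with the smallest p in a comparison are named. Alternatives were other pseudocounts, filters and scalings, no trend, limma-voom, a replicate block, values of any status, all libraries in 1 fit, and leaving out libraries. Promoters came from RefSeq (GRCm38.p6), whose coordinates are not those of mm9. Stretches of 50 bases shared between genes were counted in mouse transcripts of the GENCODE annotation, not of RefSeq.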

Additional observations from a re-analysis of the deposited data

Results flagged for a closer look

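The CWO effect on Fads3 was called as differing between tissues, but most fits that left out 1 library did not keep this call. The log2 fold change in papillomas minus that in epidermis was -1.52 (SE 0.287, limma adjusted p = 0.0331), the result of a direct test of the difference over all 12 libraries. In epidermis all 3 CWO libraries exceeded all 3 vehicle libraries, while in papillomas the groups overlapped. The difference kept its direction in each of the 12 fits that left out 1 library, and its limma adjusted p ranged from 0.00556 to 0.108 over those fits. The call was lost in 9 of them, and also without the filter on low values and with the replicate block. Tissue, carcinogen treatment and length of CWO treatment cannot be told apart here.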

How the results depend on the processing

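The number of members called for CWO in epidermis, 6, became 1 with no filter on low values, 3 with median-ratio scaling or the replicate block (2 higher and 1 lower, against 5 and 1) and 0 without vehicle epidermis libraries 1 and 2, and ranged from 3 to 9 when 1 library was left out. The genes called in all numbered 246, against 44 without the filter, 55 with the block, 163 with limma-voom, 656 with all 12 libraries in 1 fit and 64 to 685 when 1 library was left out. For the difference of effects the count of 1 became 2 with a pseudocount of 3, median-ratio scaling or quantile normalization (1 higher, 1 lower), 2 with no trend or limma-voom (both lower), 0 with no filter or with the replicate block, and 0 to 4 when 1 library was left out. There 101 genes were called in all, against 25 with the block, 63 without the filter and 34 to 328 when 1 library was left out. The cause was not tested. Papillomas gave 0 members for CWO under every alternative run, and 4 genes with the block. Between tissues 24 to 30 members were called with CWO and 28 to 31 with vehicle when 1 library was left out. Without an epidermis library, Cidec, Dgat2l6, Mc5r, Plin5 and Scd3 with CWO, and Cidec, Plin5 and Scd4 with vehicle, came under the filter and were not tested, while Cidec with vehicle was the 1 called member whose call was lost. No direction reversed among the values recomputed, which cover called members and, where fewer than 3 were called, the 3 with the smallest p. Median-ratio scaling and quantile normalization moved the median of all genes by 0.111 and 0.132 on the log2 scale between the CWO groups of both tissues, and by less than 0.1 elsewhere.

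The labels' replicate numbers are not said to pair samples. Deviations of same-numbered libraries in epidermis correlated at 0.029, -0.444 and -0.363, and in papillomas at 0.279, 0.140 and 0.022. The highest correlations with another number were 0.174, 0.442 and 0.357 in epidermis, and 0.053, -0.037 and 0.280 in papillomas. In papillomas replicates 1 and 2, but not 3, thus correlated more with their own number. The numbers were not taken as pairs, but these values cannot exclude pairing in papillomas. With 3 libraries a group, true changes can be missed. The intervals given are not limits of detection, since they are not adjusted for the number of genes tested while the calls are. Single low genes rest on few fragments.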
